A study of Homo sapiens with 4 samples.

Results

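The BCL2 family decides whether the outer membrane of the mitochondrion stays closed or is opened, the step that commits a cell to intrinsic apoptosis. Anti-apoptotic members hold the others in check, the effectors BAX and BAK form the pores that release cytochrome c, and the BH3-only proteins carry stress signals to both by a short helix called the BH3 domain. DNA damage acts on this balance largely through p53, which turns on genes such as BBC3, PMAIP1 and BAX.

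Of the 23459 genes counted in the series, 10 genes of this family are described, found by their current NCBI symbol. They are the anti-apoptotic BCL2, BCL2L1 (BCL-X) and MCL1, the effectors BAX and BAK1, and the BH3-only genes BCL2L11 (BIM), BID, BBC3 (PUMA), PMAIP1 (NOXA) and BMF. All 10 passed the expression filter, a CPM (count scaled to the total of its library) above 1 in at least 2 of the 4 libraries, as did 12559 genes in all. The cells were hTERT RPE-1, a wild type human line of retinal pigment epithelium origin that carries a telomerase transgene. After 48 h in medium with 0.1% serum, which arrests them in G0/G1, they received 200 μM merbarone, a catalytic inhibitor of type II topoisomerases, for 4 h (2 libraries) or for 8 h (2 libraries). Every library came from merbarone-treated cells, and untreated cells were not analysed here, so the comparison is between 8 h and 4 h, and time in the drug cannot be told apart from time in low serum.

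The libraries held from 8064450 to 10324697 counts, with the lower totals at 8 h. Of 14 markers of retinal pigment epithelium, 10 had at most 12 counts in any library, among them RPE65 and TYR. MITF and OTX2 had more than that, and the summed level of the 14 was 101 to 109 CPM at 4 h and 116 to 128 CPM at 8 h. MERTK had 45 to 84 counts and SERPINF1 22 to 30. The 4 epithelial markers, of which EPCAM and CDH1 had at most 1 count, summed to 687 to 742 CPM at 4 h and 593 to 644 CPM at 8 h, and the 3 mesenchymal markers (FN1, VIM and COL1A1) to at least 21723 CPM in every library. Nothing in the labels says whether the replicates were separate cultures, although the study calls them biological, so p-values measure the spread between these libraries.

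Between 4 h and 8 h, 4 of the 10 genes rose, none fell, and 6 did not pass the test. BCL2L1 rose the most, by 1.92-fold, and BCL2, BAX and BBC3 rose by 1.31-fold to 1.32-fold. The genes that rose thus came from each class of the family, and the gene with the largest change was an anti-apoptotic one. A gene is said to rise or fall here when its Benjamini-Hochberg adjusted p, over all genes tested with edgeR's quasi-likelihood test, was below 0.05. Over all genes, 38.8% passed this rule, 19.9% rising and 18.8% falling, so the share of members that rose was above that of all genes while the share that passed was close to it. Under the study's rule for differentially expressed genes (DEGs), which also asks for an absolute log2 fold change (log2FC) above 1, edgeR called 0 of the 10, against 5.33% of all genes. The unadjusted p was below 0.05 for 5 of them (47.3% of all genes), and Limma-Voom and DESeq2 also called 0 DEGs among the 10. In 7 of the 10 genes both 8 h libraries lay above both 4 h libraries, as in 34.8% of all genes, and the other 3 overlapped. The median log2FC of the 10 genes was 0.34, and that of all tested genes was 0.00.

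**Figure D1:**
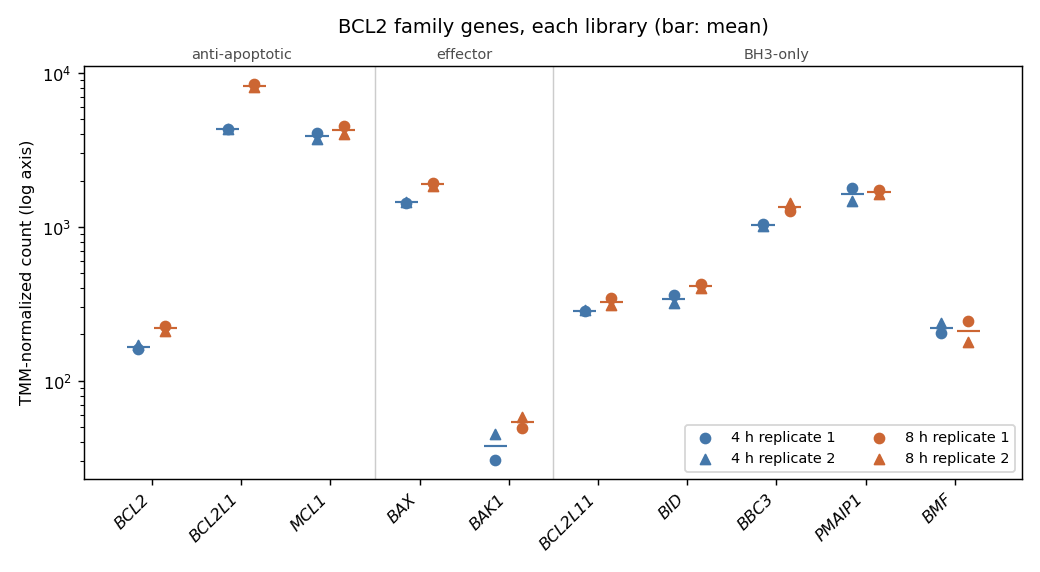
TMM-normalized counts (log axis) of the 10 genes, with 4 h in blue and 8 h in orange, circles for replicate 1, triangles for replicate 2 and a bar for each mean of 2 libraries. The widest gap between the times is that of BCL2L1, while the times overlap for MCL1, PMAIP1 and BMF.

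The windows around the start sites of 3 of the 4 genes that rose are shown first, since BAX and BBC3 changed by the same 1.31-fold and BCL2L1 by more. They are RefSeq promoter sequences on GRCh38.p14, 250 bases before to 50 bases after an annotated start, and 9 of the 10 genes had at least 1 such window (MCL1 had none). Matches on either strand to 4 motifs are in capitals, and none of the matches overlap. The motifs are the E-box CACGTG, the forkhead motif GTAAACA, the AP-1 motif TGACTCA and the p53 decamer, which is a half-site.
BAX (chr19:48954625-48954924, plus strand): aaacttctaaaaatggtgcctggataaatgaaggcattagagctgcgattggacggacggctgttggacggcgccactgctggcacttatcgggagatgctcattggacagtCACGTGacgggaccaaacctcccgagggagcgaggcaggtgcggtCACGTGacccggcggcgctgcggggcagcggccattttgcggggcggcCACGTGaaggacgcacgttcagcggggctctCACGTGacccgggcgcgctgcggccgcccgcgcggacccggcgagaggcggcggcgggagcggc
BBC3 (chr19:47232618-47232917, minus strand): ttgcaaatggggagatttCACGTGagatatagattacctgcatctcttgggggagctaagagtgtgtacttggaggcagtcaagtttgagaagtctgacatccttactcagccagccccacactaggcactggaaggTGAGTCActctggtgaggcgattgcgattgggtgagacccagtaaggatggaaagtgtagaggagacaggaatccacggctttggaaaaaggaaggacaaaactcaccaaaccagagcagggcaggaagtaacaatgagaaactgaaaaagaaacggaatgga
BCL2L1 (chr20:31723914-31724213, minus strand): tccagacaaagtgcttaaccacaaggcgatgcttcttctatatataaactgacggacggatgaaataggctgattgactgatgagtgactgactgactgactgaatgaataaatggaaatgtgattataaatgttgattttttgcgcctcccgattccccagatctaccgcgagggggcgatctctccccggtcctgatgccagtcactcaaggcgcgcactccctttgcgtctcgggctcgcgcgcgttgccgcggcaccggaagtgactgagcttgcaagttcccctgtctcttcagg

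The BAX window held 4 E-boxes, whose first bases lay at −138, −93, −45 and −14 from the start site. An E-box was present in 7.26% of the 35116 promoter windows of all genes, and 4 or more in 5 windows, 0.0142% of them. BBC3 had 1 E-box, at −232, and 1 AP-1 match on the opposite strand, a motif found in 4.95% of all windows. Neither window of BCL2L1 held any of the motifs, and nor did the window of BCL2, which also rose. Among the genes that did not pass the test, BID had an E-box in 2 of its overlapping windows. BCL2L11 had a forkhead match at −223 (3.42% of all windows), and BAK1 a single match to the p53 half-site (6.63% of all windows). These are matches of letters in short windows, and elements in introns or farther away were not searched.

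BCL2L1 (chromosome 20, 30252255 to 30311792, minus strand, hg19) encodes BCL-XL, which binds BAX, BAK and BH3-only proteins, and, by another splice site, the short pro-apoptotic BCL-XS. Its normalized counts were 4316 and 4318 in the 4 h libraries, against 8431 and 8142 after 8 h. The replicates were much closer to each other than to the other time. The mean rose from 4317 ± 1.04 to 8287 ± 205 (SD, n = 2 each), which is 0.94 as log2FC (standard error, SE, 0.07, edgeR adjusted p = 6.39e-09). The SD at 4 h comes from 2 nearly equal values and is smaller than the error of counting reads. The 95% interval of this log2FC, 0.80 to 1.09, includes the DEG threshold of 1. Counts were per gene, so the long and short forms cannot be separated. Exons of the antisense long non-coding RNA gene ABALON cover 1735 bases of BCL2L1 exons, and whether the counting used strand is not given in the sources used here.

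BCL2 (chromosome 18, 60790579 to 60987361, minus strand), the founding anti-apoptotic gene, was among the lowest of the 10. It had 162 and 170 normalized counts in the 4 h libraries, against 226 and 212 after 8 h, without overlap. It rose by 0.40 as log2FC (SE 0.14, edgeR adjusted p = 0.0316). This call depended on the test and on single libraries. The adjusted p was 0.133 with DESeq2 and 0.108 with library size in place of TMM. It was 0.187 without 4 h replicate 1, 0.116 without 4 h replicate 2 and 0.108 without 8 h replicate 1, and the lowest over the alternatives was 0.0120.

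MCL1 (chromosome 1, 150533371 to 150552214, minus strand), a short-lived anti-apoptotic protein and the main target of NOXA, did not pass the test. Its normalized counts were 4048 and 3749 in the 4 h libraries, against 4520 and 4037 after 8 h, so that 8 h replicate 2 lay between the 4 h replicates. The log2FC was 0.13, with a 95% interval from −0.03 to 0.30 (edgeR adjusted p = 0.176). Without 8 h replicate 2 it was 0.21 (edgeR adjusted p = 0.0219). A rise as large as that of BCL2L1 lies outside the interval. The long non-coding RNA gene ADAMTSL4-AS1, not listed in the counts, shares 328 exonic bases with MCL1 on the same strand.

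The effector BAX (chromosome 19, 49458072 to 49465055, plus strand) had 1433 and 1452 normalized counts in the 4 h libraries, against 1936 and 1846 after 8 h. The replicates of a time lay close together, and the times did not overlap. The mean rose from 1443 ± 13.6 to 1891 ± 63.4 (SD, n = 2 each), a change of 0.39 as log2FC (SE 0.08, edgeR adjusted p = 0.000574). It passed the test in each of the 13 alternative fits, with a log2FC from 0.28 to 0.43.

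BAK1 (chromosome 6, 33540324 to 33548070, minus strand), the other effector, had the fewest reads, 34 and 50 counts in the 4 h libraries and 48 and 47 in those of 8 h. After normalization these were 30.5, 45.3, 49.1 and 58.4. Both 8 h libraries were above both 4 h libraries, but the 4 h replicates were far apart, and the log2FC of 0.49 had a 95% interval from −0.07 to 1.06 (edgeR adjusted p = 0.158).

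The low count of BAK1 has to be read with the mapping in view. Bowtie does not split a read over a splice junction, and reads with more than 1 position in the genome were discarded. For each member, the reads of 75 bases that could start in its longest GENCODE transcript were placed on GRCh37, and those that lie in 1 exon and match nowhere else with up to 2 mismatches, an approximation of the mapping, were called countable. Only 11.1% of the positions of BAK1 were countable (237 of 2138), against 81.0% to 99.0% for the other 9 genes. In BAK1, 81.8% of the positions lay in 1 exon, so most of the loss came from matches elsewhere in the genome. GENCODE lists the processed pseudogenes BAK1P1 on chromosome 20 and BAK1P2 on chromosome 11, but whether the lost positions matched these was not tested. BAX had the next lowest share, nearly all of its loss being positions that span exons. The same positions are lost in every library.

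**Figure D2:**
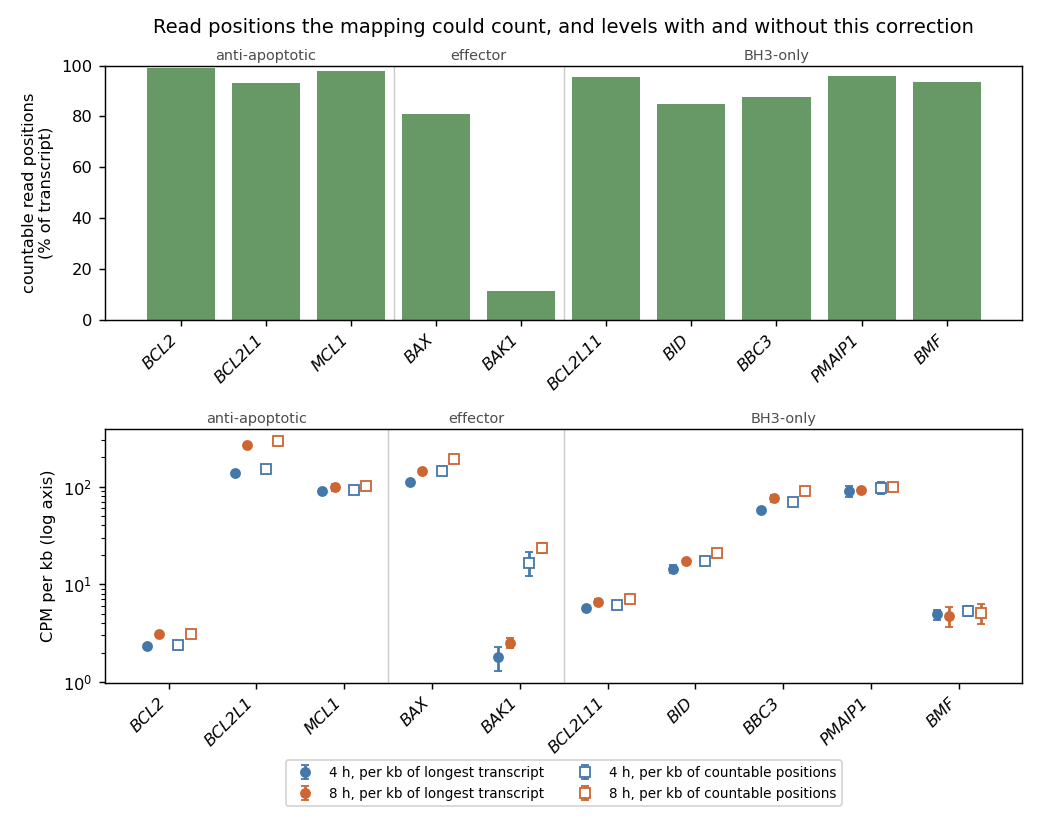
Top, percent of 75-base read positions of each gene's longest transcript that the mapping could count; bottom, CPM per kb (log axis, mean ± SD of 2 libraries) at 4 h and 8 h, per kb of transcript (filled) and per kb of countable positions (open). BAK1 stands at 11.1%, and its level at 4 h is 1.79 on the first scale and 16.7 on the second.

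Levels can be compared between genes only per length. Per kb of the longest transcript, BCL2L1 was highest at 4 h, at 138 ± 0.0333 CPM per kb (SD, n = 2), followed by BAX at 111 ± 1.04. With 2 values, an SD as small as that of BCL2L1 understates the error of counting reads. PMAIP1 (90.0 ± 12.1) and MCL1 (89.4 ± 4.86) did not differ beyond their spread, and BBC3 stood at 58.1 ± 0.916. BID (14.3 ± 1.31), BCL2L11 (5.78 ± 0.106), BMF (4.91 ± 0.574), BCL2 (2.32 ± 0.0702) and BAK1 (1.79 ± 0.494) were lower, and BCL2 and BAK1 lay closer together than the 4 h replicates of BAK1. Within the 10 genes, BCL2L1 and MCL1 were thus the most abundant on the anti-apoptotic side, and BAX, PMAIP1 and BBC3 on the other. The place of BAX depends on the length: with the union of all exons it stood at 58.2 ± 0.547, behind PMAIP1 (78.2 ± 10.5) and MCL1 (65.4 ± 3.55), and BCL2, BID and BBC3 also moved by over 1.5 times. At 8 h the order was the same except that MCL1 (98.1 ± 7.84) and PMAIP1 (92.5 ± 4.04) changed places within their spread, while BCL2L1 reached 265 ± 6.55. Per kb of countable positions, BAK1 reached 16.7 ± 4.61 CPM at 4 h and stood beside BID at 17.3 ± 1.59, and BAX at 145 ± 1.36 came close to BCL2L1 at 152 ± 0.0367.

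BBC3 (chromosome 19, 47724079 to 47736023, minus strand) encodes PUMA, a BH3-only protein that binds all anti-apoptotic members and is a classical p53 target. It had 1040 and 1017 normalized counts in the 4 h libraries, against 1269 and 1430 after 8 h. The times did not overlap, and the 8 h replicates were wider apart than the 4 h replicates. The mean rose from 1029 ± 16.2 to 1350 ± 114 (SD, n = 2 each), a change of 0.39 as log2FC (SE 0.09, edgeR adjusted p = 0.00127), and it passed in each of the 13 alternative fits. The microRNA gene MIR3191, on the opposite strand within its exons, was listed with 6 to 18 counts.

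PMAIP1 (chromosome 18, 57567228 to 57571537, plus strand) encodes NOXA, which binds MCL1 and is a target of both p53 and ATF4. It had 1795 and 1483 normalized counts in the 4 h libraries, against 1737 and 1633 after 8 h. Both 8 h values lay between those of 4 h. The log2FC was 0.04, with a 95% interval from −0.15 to 0.23 (edgeR adjusted p = 0.753), so a rise of the size measured for BBC3 lies outside the interval, and the sign changed with library size in place of TMM and after a correction of each library for its trend with abundance (−0.07 in both). PMAIP1 was thus among the most abundant of the family at both times, and its change between them did not pass the test.

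BID (chromosome 22, 18216904 to 18257536, minus strand), which caspase-8 cleaves to link death receptors to the mitochondrion, had 363 and 319 normalized counts in the 4 h libraries, against 426 and 403 after 8 h. The times did not overlap, and the log2FC was 0.28 (SE 0.11, edgeR adjusted p = 0.0554). It passed with the replicate number as a block (edgeR adjusted p = 0.0302), a fit in which 5 of the 10 genes rose, and without 8 h replicate 2 (edgeR adjusted p = 0.0439), and its adjusted p ran up to 0.374 over the alternatives. BCL2L11 (chromosome 2, 111876955 to 111926021, plus strand) encodes BIM, which forkhead factors turn on when growth factors are withdrawn. Its normalized counts were 283 and 290 in the 4 h libraries, against 344 and 309 after 8 h. They did not overlap, but the log2FC of 0.19 had a 95% interval from −0.06 to 0.44 (edgeR adjusted p = 0.215). The long non-coding RNA gene MIR4435-2HG shares 727 exonic bases with BCL2L11 on the opposite strand and had 181 to 262 counts. BMF (chromosome 15, 40380091 to 40401093, minus strand), a BH3-only protein tied to the cytoskeleton through dynein light chain, had 203 and 239 normalized counts in the 4 h libraries, against 246 and 178 after 8 h. The times overlapped fully, and the log2FC was −0.05 with a 95% interval from −0.38 to 0.28 (edgeR adjusted p = 0.831). BMF-AS1, a long non-coding RNA gene not listed in the counts, shares 461 exonic bases with BMF on the opposite strand.

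**Figure D3:**
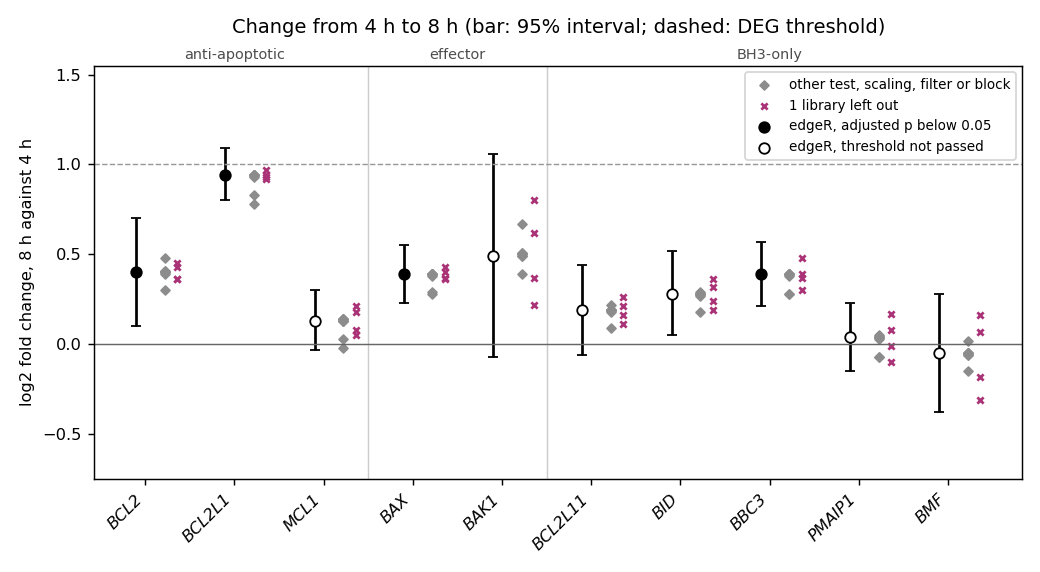
Log2 fold change from 4 h to 8 h by edgeR (circle, with its 95% interval), under other tests, scalings, filters or the replicate block (diamonds) and with 1 library left out (crosses). BCL2L1 stays between 0.78 and 0.97 in all of them. The estimates of MCL1, PMAIP1 and BMF reach both sides of 0, while those of all other genes lie above 0 throughout.

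Ratios of counts within a library do not depend on scaling between libraries. BCL2L1 had 1.07 and 1.15 counts for each count of MCL1 at 4 h, and 1.87 and 2.02 at 8 h. Both 8 h ratios were above both 4 h ratios. Per kb of transcript the earlier pair was 1.49 and 1.61 and the later pair 2.61 and 2.82, so that BCL2L1 was ahead of MCL1 at both times. The ratio of BCL2L1 to BAX went from 3.01 and 2.97 to 4.35 and 4.41, and that of BCL2L1 to BBC3 from 4.15 and 4.25 to 6.64 and 5.69. Both of these ratios were higher in each 8 h library than in either 4 h library. In contrast, the ratio of MCL1 to its partner PMAIP1 was 2.26 and 2.53 first and 2.60 and 2.47 later, with overlap. The ratio of MCL1 to BAX went from 2.82 and 2.58 to 2.33 and 2.19, and that of BBC3 to PMAIP1 from 0.580 and 0.686 to 0.731 and 0.876. With 2 libraries against 2, the smallest p of a two-sided exact permutation test of such a ratio comes from 2 of the 6 possible groupings and cannot reach 0.05, so they are given without a test.

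**Figure D4:**
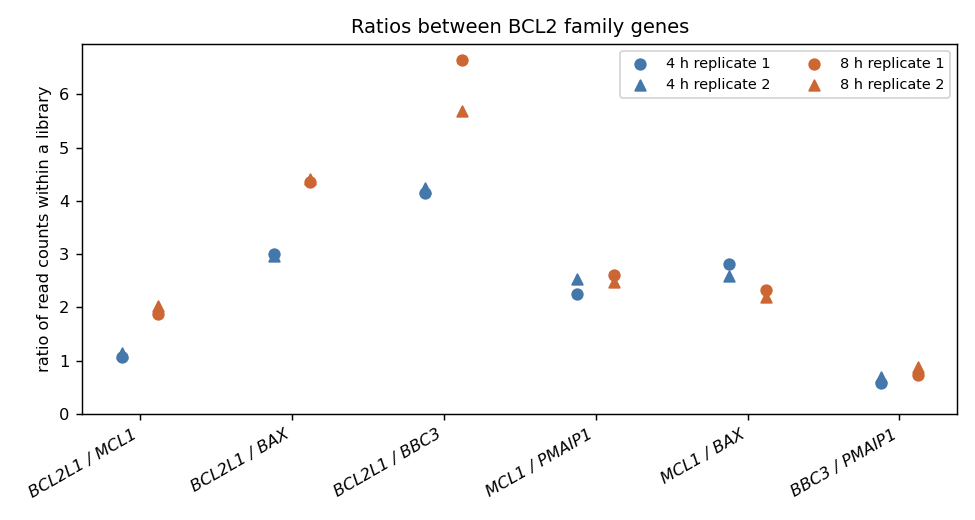
Ratio of read counts between pairs of BCL2 family genes within each library, 4 h in blue and 8 h in orange, circles for replicate 1 and triangles for replicate 2. The ratio of BCL2L1 to MCL1, BAX and BBC3 is higher in both 8 h libraries, and the ratio of MCL1 to PMAIP1 overlaps between the times.

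Among 13 other genes of the family, 8 passed the expression filter, 1 of them (HRK) only through its 8 h libraries. Of the other 7, BAD rose, BCL2L2 fell and 5 did not pass the test, where 19.9% of all tested genes rose and 18.8% fell. HRK, a BH3-only gene best known from neurons, had 2 and 4 counts in the 4 h libraries and 25 and 20 in those of 8 h. It was higher in both 8 h libraries, and no test is given, since a gene that enters through its higher time had to differ. BAD, the BH3-only protein that survival kinases hold inactive by phosphorylation, rose by 0.35 as log2FC (SE 0.10, edgeR adjusted p = 0.00862), but did not pass with library size in place of TMM or without 4 h replicate 1. BCL2L2, which encodes the anti-apoptotic BCL-W, fell by 0.50 on the log2 scale (SE 0.09, edgeR adjusted p = 0.000312), the opposite sign to BCL2L1. The other anti-apoptotic genes BCL2A1 and BCL2L10 had at most 3 counts in any library.

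Beyond the BCL2 family, 17 genes of the apoptosome, the caspases and their inhibitors were tested. Of these, 2 rose, 4 fell and 11 did not pass, where 19.9% of all tested genes rose and 18.8% fell. The rises were those of BIRC3 (log2FC 0.54) and BIRC2 (log2FC 0.28), which encode the cIAP ubiquitin ligases (edgeR adjusted p = 0.00295 and 0.0279). Neither passed without 4 h replicate 2 or without 8 h replicate 1, and BIRC2 also did not with DESeq2, library size alone or the trend correction. The largest falls were those of CASP2, by 1.08 on the log2 scale, and CASP6, by 0.89 (edgeR adjusted p = 1.04e-05 and 0.00103). Both passed in all 13 alternative fits, and CASP2, which encodes an initiator caspase, was the 1 DEG of the list. The median log2FC of the 17 genes was −0.01.

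Of 8 genes that handle the MCL1 protein, 2 rose, 1 fell and 5 did not pass. For this list and the next 2, the shares of all tested genes were 19.9% rising and 18.8% falling. The ubiquitin ligase genes FBXW7 (log2FC 0.80, edgeR adjusted p = 5.03e-05) and HUWE1 (log2FC 0.38, edgeR adjusted p = 0.000604) rose. USP13, a deubiquitinase gene, fell by 0.68 on the log2 scale (edgeR adjusted p = 0.000116). Each of these calls held in all 13 alternative fits, and the median of the 8 genes was 0.08. Of 4 partners of BH3 proteins, DYNLL2, the dynein light chain that binds BMF, fell by 0.66 on the log2 scale (edgeR adjusted p = 2.62e-05) and 3 did not pass. Of 8 transcription factors that act on BH3-only genes, 7 passed the filter, of which 4 rose and 3 did not pass the test. The largest rises were those of DDIT3, the stress factor CHOP (log2FC 0.88, standard error 0.07, edgeR adjusted p = 2.67e-08), and of FOXO1 (log2FC 0.80, standard error 0.25, edgeR adjusted p = 0.0162). FOXO1 rested on 38 to 73 counts, and it did not pass with DESeq2, without 4 h replicate 1 or without 8 h replicate 1.

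**Figure D5:**
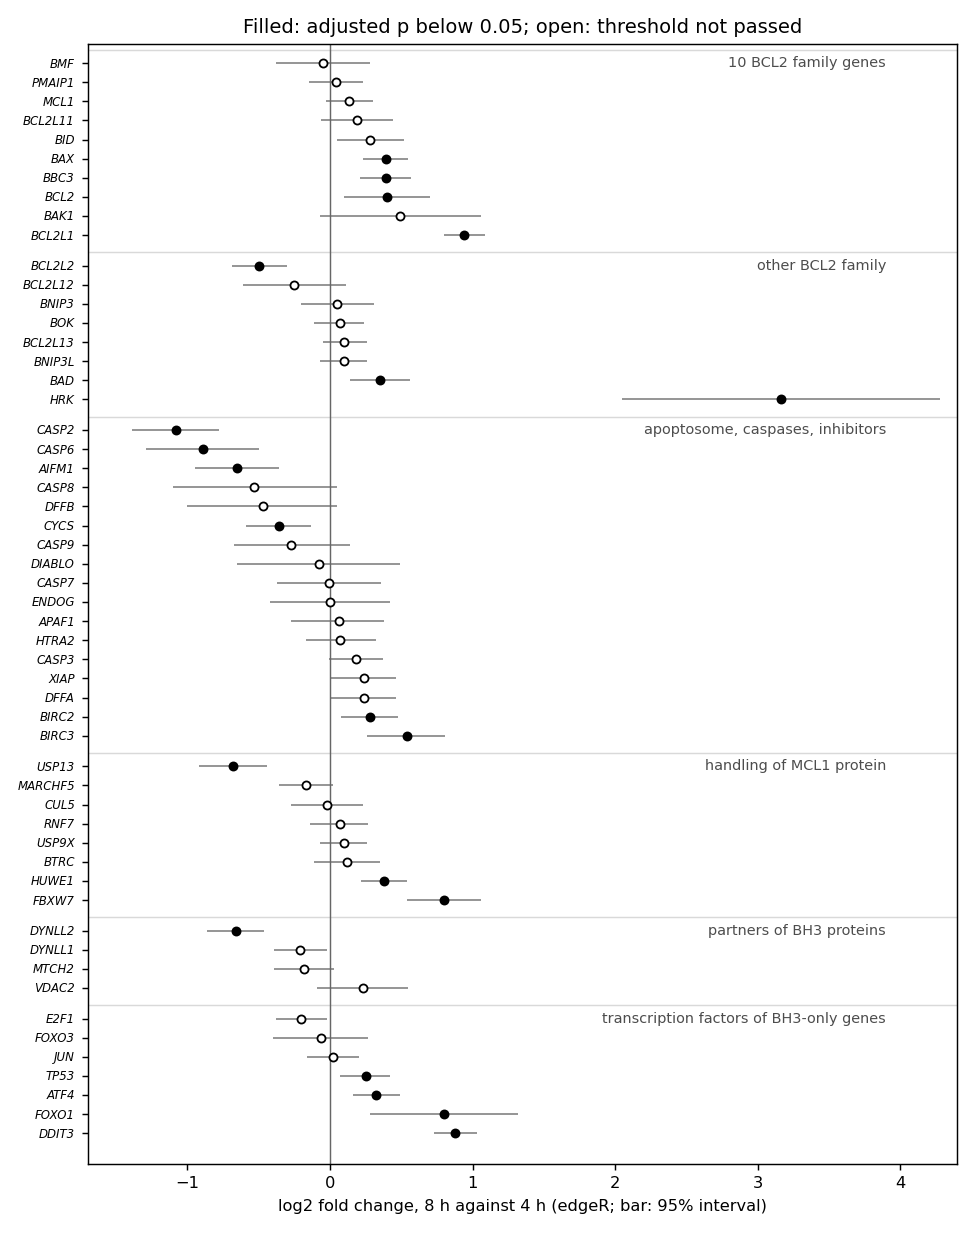
Log2 fold change from 4 h to 8 h of each tested gene in 6 lists (edgeR, with 95% intervals), filled where the adjusted p was below 0.05. BCL2L1 stands apart at 0.94 among the 10 family genes. HRK, fitted at 3.16, passed the expression filter only through its 8 h libraries. Its filled point and interval are therefore not read as a test.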

How the data were processed

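RNA-Seq libraries were made from 150 ng of total RNA with a stranded mRNA protocol. The authors aligned them to hg19 by Bowtie (1.2.0 in the submitters' processing notes), kept reads with a single position, and deposited raw counts per gene, under NCBI Gene identifiers, without normalization or filtering. The annotation, the counting tool and the use of strand are not given in the sources used here.

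Symbols came from RefSeq (GRCh38.p14), which named 23304 of 23459 identifiers, and hg19 positions and lengths from GENCODE on GRCh37. The filter was the study's (CPM above 1, 2 or more libraries), followed by TMM. Normalized counts are scaled to the mean effective library of 9586677 counts. The quasi-likelihood test of edgeR 4.0.16 (R 4.3.3) was fitted on 12559 genes with time as the only term, and the standard error is the log2FC divided by the square root of F. Limma-Voom (limma 3.58.1, the study's test), DESeq2 1.42.0, other scalings and filters, a trend correction, the replicate block and leaving out each library were alternatives, 13 in all. Levels per kb of countable positions were added after seeing the data. The tests were also run on simulated counts with few changed genes, and no result here rests on that run. With 2 libraries per time, the adjusted p-values lean on variances pooled over genes (biological coefficient of variation 6.52%).

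All 10 members are named, and of each other list at most the 2 largest rises and falls that passed, apart from genes at very low counts. The members and lists were chosen with earlier results of these data known.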

Additional observations from a re-analysis of the deposited data

How the results depend on the processing

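The number of members that rose was 4, and it ran from 3 to 5 over the alternatives in test, scaling, filter, trend correction and block, and from 3 to 6 with 1 library left out. Of all genes, 19.9% rose with edgeR and TMM, 13.5% with library size alone, 22.5% with the block and 18.7% without 8 h replicate 2. No member was a DEG in any alternative. Where 1 library was left out, the lone library of a time was taken to vary like the pair that remained. The calls of BCL2L1, BAX and BBC3 held in all 13 alternatives.

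BCL2 kept its direction but did not pass with DESeq2 (log2FC 0.41) or library size alone (0.30), and ran from 0.36 to 0.45 with 1 library left out. MCL1 was −0.02 after the fitted trend with abundance was taken out of each library (trend correction), and 0.05 to 0.21 with 1 library left out. PMAIP1 was −0.07 with library size alone and with the trend correction, and −0.10 to 0.17 with 1 library left out. BMF was 0.02 with the trend correction, and −0.31 to 0.16 with 1 library left out. BID passed with the replicate block (0.28) and ran from 0.19 to 0.36 with 1 library left out. Library size alone moved the median of all genes to −0.11, and the cause of the other shifts was not tested. The block changed no other call of a member. Deviations of same-numbered libraries had a correlation of 0.05, so the numbers gave little sign of pairing.

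With the union of exons as length, levels at 4 h in CPM per kb were 1.37 (BCL2), 107 (BCL2L1), 65.4 (MCL1), 58.2 (BAX), 4.43 (BCL2L11), 8.05 (BID), 33.7 (BBC3) and 4.23 (BMF), so that the order of MCL1, BAX and PMAIP1 changed, as did that of BCL2 and BAK1. Per kb of countable positions they were 152 (BCL2L1), 145 (BAX), 16.7 (BAK1), 6.13 (BCL2L11), 17.3 (BID) and 69.2 (BBC3). Depth limits genes with few reads, such as BAK1 and HRK, both under 60 counts in every library.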
